A study of Mesocricetus auratus with 8 samples.

Results

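The 8 genes described here, Pax7, Pax3, Met, Cxcr4, Sdc4, Spry1, Cdh15 and Vcam1, are genes commonly used to recognise skeletal muscle satellite cells (SCs). They were taken from the deposited expression table by gene symbol, and each symbol matched 1 of the 17590 genes with values. All 8 passed the filter on low counts and are among the 12506 genes tested. The rule matched symbols only and used no measured value, although the list was drawn up with earlier results of these data known. In the order given, their NCBI gene identifiers in the table are 101838428, 101832788, 101825509, 101843789, 101835638, 101833584, 101826186 and 101830979.

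SCs are the stem cells of skeletal muscle and lie between the muscle fiber and the basal lamina. PAX7 marks the quiescent and the proliferating SC, and cells that go on to differentiate lose it while MYOD1 and then myogenin drive the muscle program. At the cell surface SCs carry receptors and adhesion molecules through which they sense growth factors, chemokines and their neighbours. Several of these genes are also active in other cells of muscle, so that PAX7 is the most specific of the 8.

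Both groups were primary SCs from the hindlimb muscle of wild-type, sexually mature male Syrian hamsters (Slc:Syrian), purified by preplating and grown on Matrigel in medium with serum, chick embryo extract and basic fibroblast growth factor. Control libraries (n = 4) were made before cold exposure, and cold libraries (n = 4) after 24 h at 4°C that followed 48 h of preculture and 24 h in HEPES-buffered growth medium at 37°C. The control titles name day 3 throughout, but the treatment field counts 3 days of culture for replicate 1, 4 for replicate 2, 5 for replicate 3 and 6 for replicate 4. The cells were cultured ones, enriched and not sorted by a marker. By the titles and the series' design a cold library was 24 h older than its control in time since plating, whereas by the treatment field controls 2 to 4 were as old as the cold libraries or older. Which holds was not settled, and by the former time and temperature cannot be told apart.

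The libraries held 16530747 to 18533801 expected read counts each. The first principal component took 54.5% of the variance and placed replicates 1 and 2 of both groups on one side and replicates 3 and 4 on the other, while control and cold parted on the second (17.9%). Libraries with the same replicate number deviated together from their group means, with correlations across genes of 0.609 to 0.659. Differently numbered libraries on the same side of the first component correlated nearly as highly, between 0.432 and 0.591, and those on opposite sides between −0.609 and −0.553. Same-numbered libraries were treated as pairs. Each control library correlated most highly with the cold library of its own number, but by little in replicates 1 and 2. Where a call differs, values from an edgeR fit blocked on the replicate number stand beside those of the unblocked fit. The counts of replicates 1 and 2 differed by a chi-square per gene of 2.46 in control and 2.78 in cold. This value was 6.99 and 4.78 between replicates 3 and 4, and 18.9 to 27 across the sides. Blocked p-values and n = 4 treat the 4 numbers as independent sources, which was not tested. What a number marks, an animal, an isolation or a day, was not stated. Because RNA came from whole dishes, fewer cells of a type and less RNA per cell cannot be told apart in any value below.

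Cold exposure left most of the identity genes near their control levels. In the edgeR quasi-likelihood fit without the block, 0 of 8 reached the study's criterion of a 2-fold change with a Benjamini-Hochberg adjusted p under 0.05, a criterion met by 0.04% of all genes tested, and 0 of 8 had an adjusted p under 0.05 at any fold (0.072% of all genes). Met alone had an unadjusted p under 0.05 (6.7% of all genes), and DESeq2 (1.14% of all genes) and limma (0.029%) without the block also gave 0 of 8 at an adjusted p under 0.05. With the replicate block, 0 of 8 again reached the 2-fold criterion (0.848% of all genes). At any fold, 2 of 8 changed, against 5.33% of all genes. Cdh15 fell (4.07% of all genes were lower) and Met rose (1.26% of all genes were higher). The median log2 fold change over the 8 genes was 0.01 in both fits, and that over all genes tested was 0.01.

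**Figure D1:**
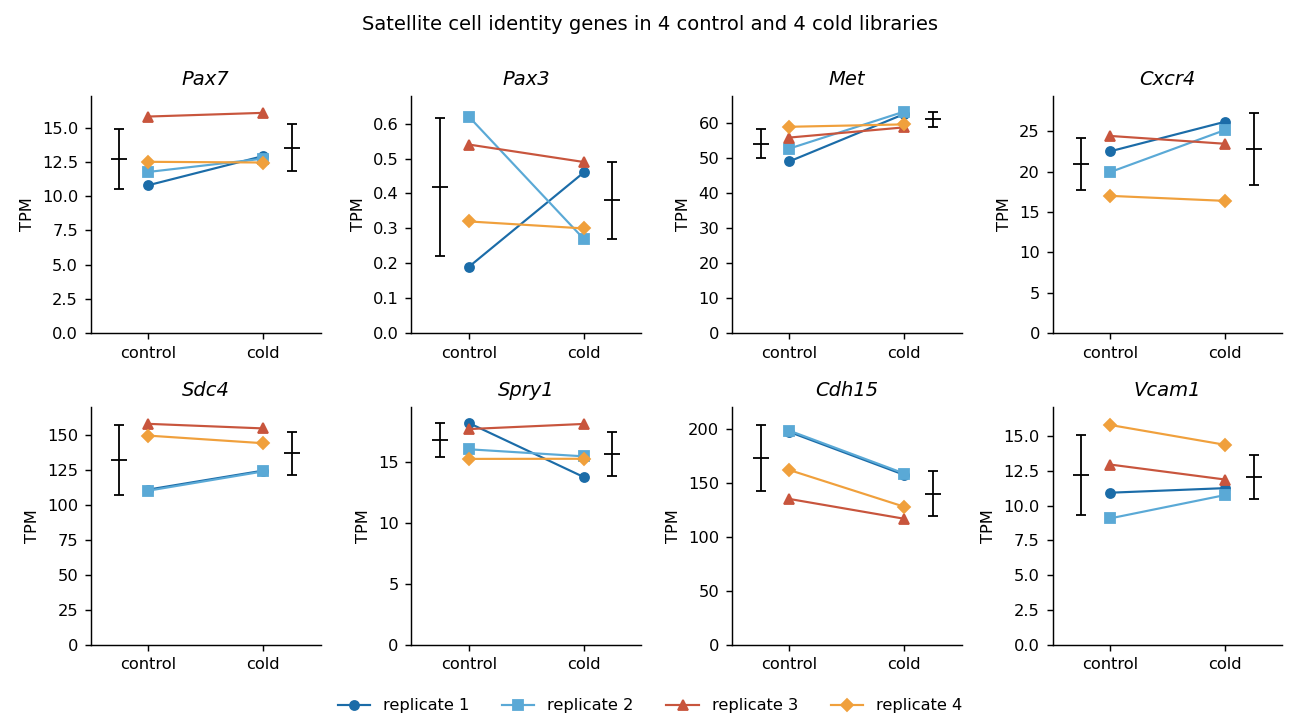
TPM (vertical axis, from 0) of each identity gene in the control and cold libraries, with a line joining libraries of the same replicate number and black bars for the mean ± SD of 4 libraries. Cdh15 is lower and Met is higher in the cold in all 4 pairs, while the other 6 genes have lines running in both directions.

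The levels of the 8 genes spanned a wide range, given here as TPM, a transcript abundance that is divided by transcript length and scaled to a fixed total per library, so that genes can be compared. In control SCs Cdh15 was the most abundant (174 TPM), followed by Sdc4 (132), Met (54.3), Cxcr4 (21.0), Spry1 (16.8), Pax7 (12.7), Vcam1 (12.2) and Pax3 (0.418). The libraries of neighbouring genes overlapped for Cdh15 and Sdc4, for Cxcr4 and Spry1, for Spry1 and Pax7, and for Pax7 and Vcam1, so those neighbours were not parted. Sdc4 lay 2.43-fold above Met, Met 2.59-fold above Cxcr4 and Vcam1 29.2-fold above Pax3 without overlap. The order was the same in cold SCs. There Cdh15 was only 1.03-fold above Sdc4, compared with 1.32-fold in control.

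Pax7 encodes the paired-box transcription factor that maintains SCs. Its TPM in control replicates 1 to 4 was 10.8, 11.8, 15.8 and 12.5, and in cold replicates 1 to 4 it was 12.9, 12.7, 16.1 and 12.5. Replicate 3 was the highest library of both groups, and the groups overlapped. The means were 12.7 ± 2.17 TPM in control and 13.5 ± 1.70 in cold (SD, n = 4), and an exact two-sided permutation test over the 70 arrangements of 4 against 4 libraries gave p = 0.486. The log2 fold change in the edgeR fit was 0.08 (95% interval −0.17 to 0.32; adjusted p = 0.999) and with the replicate block 0.08 (−0.03 to 0.18; adjusted p = 0.456). As a percent change the blocked interval of Pax7 ran from −1.90% to 13.5%. Pax7 was higher in the cold in 3 of 4 pairs. Between 647 and 957 reads per library stood behind these values, and counting error alone would give a coefficient of variation of 3.56%, below the 17.1% seen among control libraries.

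Pax3, the paralog of Pax7 that acts in the muscle precursors of the embryo and in SCs of some adult muscles, was near the limit of measurement. Control libraries 1 to 4 held 0.19, 0.62, 0.54 and 0.32 TPM, and cold libraries 0.46, 0.27, 0.49 and 0.30 TPM. Each value rests on 7 to 24 reads. A count of 7 has an exact 95% Poisson interval of 2.81 to 14.4 reads, so pairs 1 and 2, which moved by 0.95 and −0.96 on the log2(TPM + 0.1) scale, differed in opposite directions at a depth that hardly separates them. The edgeR log2 fold change of Pax3 was −0.16 with a 95% interval of −1.02 to 0.71 (adjusted p = 0.999), an interval wide enough to hold a 2-fold decrease. With the block it was −0.15 with a 95% interval of −0.82 to 0.52 (adjusted p = 0.866), which does not reach a 2-fold decrease.

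Genes that work with PAX7 on chromatin were listed beside it. CARM1 and PAXBP1 link PAX proteins to the histone methyltransferase complex of WDR5, ASH2L, RBBP5 and KMT2A or KMT2D, and NEDD4 is a ubiquitin ligase reported to act on PAX7. All 8 of these genes were tested, and 0 changed in either fit, beside 5.33% of all genes with the block and 0.072% without it, shares at which a short list may hold no call. Without the block 1 had an unadjusted p under 0.05, beside 6.7% of all genes. That gene, Carm1, named after its values were seen, was higher in 4 of 4 pairs without overlap of the groups, as in 4.68% of all genes, with 113.5 ± 3.01 TPM in control and 122 ± 0.49 in cold (SD, n = 4; exact permutation p = 0.0286). Its blocked log2 fold change was 0.09 (edgeR adjusted p = 0.186). The list's median blocked log2 fold change was 0.03. Nedd4, the most abundant, had 226 ± 14.3 TPM in control and 236 ± 3.46 in cold (SD, n = 4).

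Met encodes the receptor for hepatocyte growth factor, a signal that draws SCs out of quiescence. Its TPM was 49.2, 52.8, 56.0 and 59.1 in control replicates 1 to 4, and 62.7, 63.4, 58.9 and 59.7 in cold replicates 1 to 4. Each cold library exceeded the control of its own number, but control replicate 4 lay just above cold replicate 3. Met was thus 1 of the 12.8% of all genes that were higher in all 4 pairs. The means were 54.3 ± 4.24 and 61.2 ± 2.21 TPM (SD, n = 4), and the exact permutation test gave p = 0.0571, above the smallest p of 0.0286 that this design allows.

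In the edgeR fit without the block, the log2 fold change of Met was 0.16 (95% interval 0.04 to 0.27; unadjusted p = 0.0147; adjusted p = 0.529). With the replicate block it was 0.16 ± 0.04 (SE), an increase of 11.5% (95% interval 4.89 to 18.4%), with an adjusted p of 0.0331. The size of the increase differed between pairs, at 0.35, 0.26, 0.07 and 0.02 on the log2(TPM + 0.1) scale for pairs 1 to 4. In edgeR fits without a block to replicates 1 and 2 alone, the log2 fold change was 0.24 (adjusted p = 0.00123), and in replicates 3 and 4 alone it was 0.06 (adjusted p = 0.997). The difference between these subsets was not tested. Of 9 blocked fits, 5 called Met, with adjusted p between 0.00764 and 0.287. These fits reuse the same libraries, and most were added after seeing the data, so such tallies here and below are not independent support. The call was lost without pair 1 (log2 fold change 0.11), without pair 2 (0.13), in DESeq2 (0.15; adjusted p = 0.0702) and in limma on TPM (0.18; adjusted p = 0.221). On CPM scaled with TMM factors the groups did not overlap, with 236 to 262 in control and 264 to 293 in cold (exact permutation p = 0.0286, the smallest possible), as in 4.85% of all genes. On the deposited normalized counts they did not overlap either, as in 4.78% of all genes.

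**Figure D2:**
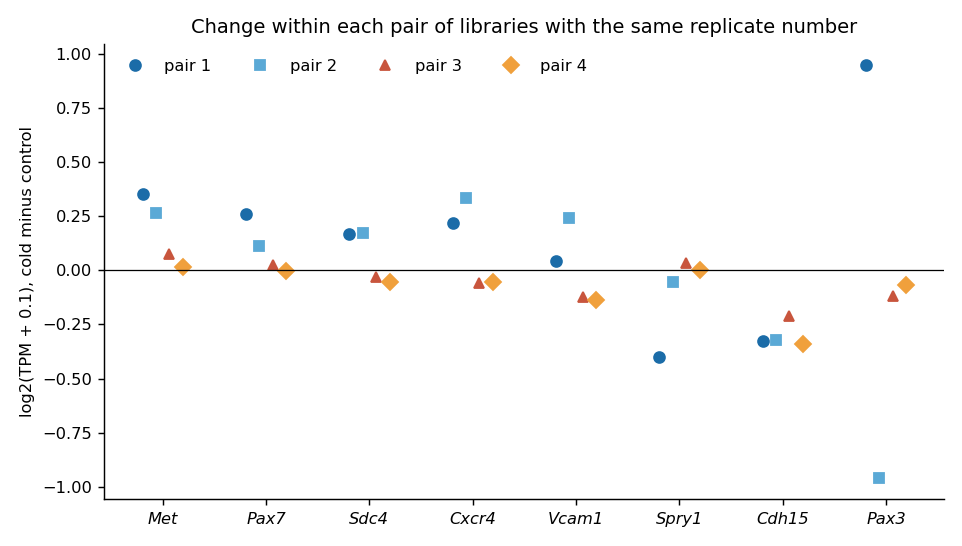
Difference in log2(TPM + 0.1), cold minus control, within each pair of libraries of the same replicate number (points) for each identity gene. All 4 points of Met lie above 0 and all 4 of Cdh15 below it, whereas Sdc4, Cxcr4 and Vcam1 lie above 0 in pairs 1 and 2 and below it in pairs 3 and 4.

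Of 10 further genes of the HGF-MET route, 9 were tested and 0 changed in either fit, near the 5.33% of all genes called with the block, with a median blocked log2 fold change of −0.0049. Hgf, the ligand, stood at 1.18 TPM over all libraries with a blocked log2 fold change of −0.11 (edgeR adjusted p = 0.709). Plau, encoding the urokinase that can activate the HGF precursor, had 0.06 (adjusted p = 0.548), and Gab1, the docking protein of the receptor, had 0.14 (adjusted p = 0.451). Ptpn11, the phosphatase SHP2 and the most abundant of the list, had 91.0 ± 8.27 TPM in control and 91.7 ± 2.88 in cold (SD, n = 4).

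Cxcr4 encodes the receptor for the chemokine CXCL12, which guides the migration of muscle precursors. Control replicates 1 to 4 had 22.5, 19.9, 24.4 and 17.0 TPM, and cold replicates 26.2, 25.1, 23.4 and 16.4 TPM. Replicate 4 was the lowest library in both groups, and the groups overlapped. Means were 21.0 ± 3.22 and 22.8 ± 4.41 TPM (SD, n = 4; exact permutation p = 0.486). The blocked log2 fold change was 0.10 (95% interval −0.05 to 0.24; edgeR adjusted p = 0.511). Cxcr4 was higher in pairs 1 and 2, by 0.22 and 0.33 on the log2(TPM + 0.1) scale, and lower in pairs 3 and 4, by −0.06 and −0.05. Of 7 partner genes 6 were tested and 0 changed in either fit, near the same 5.33% of all genes. Among them Cxcl12 itself had a blocked log2 fold change of −0.23 (adjusted p = 0.344) at 2.46 TPM, the alternative receptor Ackr3 had 0.04 and did not pass either, and Gnai2, a G protein subunit that couples to the receptor and the most abundant of the list, had 366 ± 23.0 TPM in control and 372 ± 25.97 in cold.

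Sdc4 encodes syndecan-4, a heparan sulfate proteoglycan that acts as a co-receptor for fibroblast growth factors. Its TPM was 111, 110, 158 and 149 in control replicates 1 to 4 and 124, 124, 154 and 144 in cold replicates 1 to 4. Replicates 3 and 4 lay above replicates 1 and 2 in both groups by more than any change within a pair. Replicate number took 90.3% of the variance of Sdc4 on the log2(TPM + 0.1) scale and condition 2.56%. The log2 fold change was 0.04 without the block (95% interval −0.21 to 0.29; edgeR adjusted p = 0.999) and 0.04 with it (−0.04 to 0.13; adjusted p = 0.607). Of the 15 genes listed for syndecans, fibroblast growth factors, their receptors and the enzymes of heparan sulfate, 14 had values, 13 were tested and 0 changed in either fit, near the 5.33% of all genes called with the block. The other syndecans Sdc1, Sdc2 and Sdc3 had blocked log2 fold changes of 0.02, 0.06 and 0.06, and the receptors Fgfr1 and Fgfr4 had 0.07 and −0.06. Sdc1 was the most abundant of the list, at 127 ± 2.39 TPM in control and 130 ± 7.25 in cold (SD, n = 4).

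Spry1 encodes Sprouty1, an inhibitor of receptor tyrosine kinase signalling that SCs use to return to quiescence. Its TPM was 18.2, 16.03, 17.7 and 15.2 in control replicates 1 to 4, and 13.8, 15.5, 18.1 and 15.3 in cold replicates 1 to 4. Cold replicate 1 was the lowest library and cold replicate 3 the second highest, so the groups overlapped over nearly the whole control range. The means were 16.8 ± 1.38 and 15.6 ± 1.81 TPM (SD, n = 4; exact permutation p = 0.343). The blocked log2 fold change was −0.12 (95% interval −0.28 to 0.05; edgeR adjusted p = 0.470). Pair 1 alone moved by −0.40 on the log2(TPM + 0.1) scale, and the other pairs by −0.05, 0.03 and 0.00.

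Among the 6 other Sprouty and Spred genes, which encode inhibitors of the same family, 1 passed the test with the block, which calls 5.33% of all genes, and 0 without it. Spry2 rose with a blocked log2 fold change of 0.25 ± 0.06 (SE; edgeR adjusted p = 0.0279), from 26.1 ± 3.69 to 31.4 ± 5.10 TPM (SD, n = 4), and was higher in 4 of 4 pairs. Of 9 blocked fits 6 called it, with adjusted p between 0.00555 and 0.376, and its size rested on pair 2, without which the blocked value was 0.14 (adjusted p = 0.376). Without the block the value was 0.25 (adjusted p = 0.881), or 0.14 without cold replicate 2 and 0.15 without control replicate 4. Spry4 had 0.08 (adjusted p = 0.543) and Spred1 0.05 (adjusted p = 0.608). The difference between Spry1 and Spry2 was not tested.

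Cdh15 encodes M-cadherin, a calcium-dependent adhesion molecule found where SCs touch the muscle fiber and between myoblasts. Its TPM was 198, 199, 135 and 162 in control replicates 1 to 4, and 158, 159, 117 and 128 in cold replicates 1 to 4. Every cold library lay below the control of its own number, as did 10.5% of all genes, but replicates 1 and 2 in the cold still exceeded control replicate 3. The groups therefore overlapped, with means of 174 ± 30.6 and 140 ± 21.2 TPM (SD, n = 4; exact permutation p = 0.114).

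In the edgeR fit without the block the log2 fold change of Cdh15 was −0.33 (95% interval −0.70 to 0.04; adjusted p = 0.826). With the replicate block it was −0.32 ± 0.04 (SE; adjusted p = 1.19e-05), and Cdh15 fell by 19.9% (95% interval −24.2 to −15.3%). The pairs moved by similar amounts, −0.33, −0.32, −0.21 and −0.34 on the log2(TPM + 0.1) scale. All 9 blocked fits called it, with log2 fold changes between −0.36 and −0.30 and adjusted p between 3.02e-10 and 0.00397. In edgeR fits without a block the value was −0.38 in replicates 1 and 2 alone (adjusted p = 1.36e-06) and −0.27 in replicates 3 and 4 alone (adjusted p = 0.822). Replicate number took 65.5% of the variance of Cdh15, condition 33.5% and the remainder 1.00%.

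**Figure D3:**
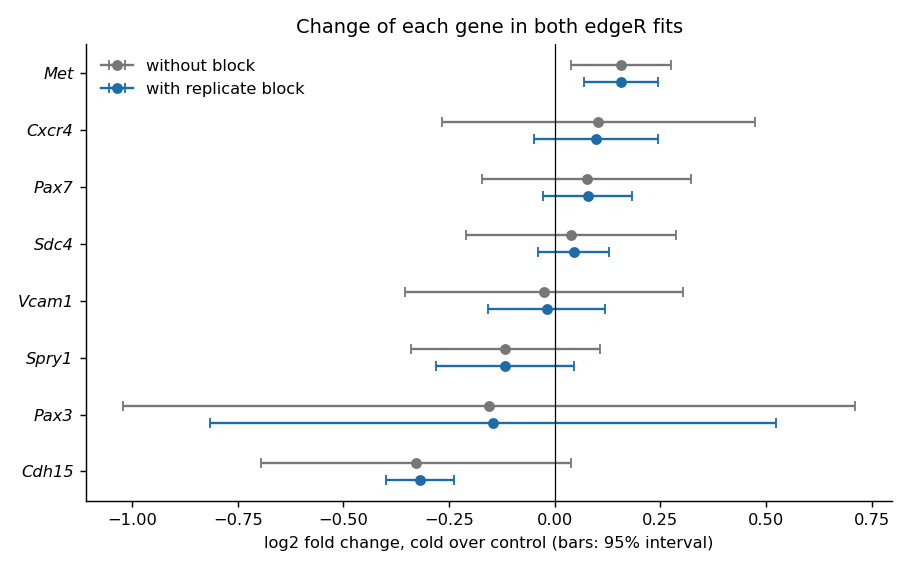
Log2 fold change of each identity gene, cold over control (horizontal axis), in the edgeR fits without the block (grey) and with the replicate block (blue), with bars for 95% intervals. The intervals of Cdh15 and Met with the block exclude 0, at −0.40 to −0.24 and 0.07 to 0.24, whereas the other 6 include it.

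Of 7 other genes listed for cadherin adhesion, 6 had values, all 6 were tested and 0 changed in either fit, near the 5.33% of all genes called with the block. N-cadherin, encoded by Cdh2, had a blocked log2 fold change of 0.02 (edgeR adjusted p = 0.832), and Cdh11 had −0.05 (adjusted p = 0.611). Ctnnb1, which encodes β-catenin, the cytoplasmic partner of cadherins, was the most abundant of the list at 334 ± 10.5 TPM in control and 341.5 ± 15.3 in cold (SD, n = 4). The median of the list was 0.02.

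Vcam1 encodes a cell adhesion molecule of the immunoglobulin family that binds α4β1 integrin and is used to isolate quiescent SCs. Control replicates 1 to 4 had 10.9, 9.08, 12.96 and 15.8 TPM, and cold replicates 11.3, 10.8, 11.9 and 14.4 TPM. Replicate 4 was the highest library in both groups. The means of 12.2 ± 2.88 and 12.1 ± 1.61 TPM (SD, n = 4) did not differ beyond this spread (exact permutation p = 0.943). The blocked log2 fold change was −0.02 (95% interval −0.16 to 0.12; edgeR adjusted p = 0.924), and its sign turned in several alternatives. Vcam1 was higher in pairs 1 and 2 and lower in pairs 3 and 4.

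Of the 7 genes listed for the integrin receptors of VCAM1 and its cytoplasmic linkers, 6 were tested and 1 passed with the block, beside 5.33% of all genes. Itga4, which encodes the α4 subunit of that integrin, fell, with TPM of 15.8, 16.6, 6.78 and 10.9 in control replicates 1 to 4 and 6.57, 9.33, 4.35 and 6.63 in cold replicates 1 to 4. The groups overlapped only through control replicate 3. The blocked log2 fold change of Itga4 was −0.91 ± 0.08 (SE; edgeR adjusted p = 3.79e-07), called in 9 of 9 blocked fits with adjusted p of at most 0.00303, and without the block it was −0.93 (adjusted p = 0.545). Its partner subunit Itgb1 had 0.01 (adjusted p = 0.936), and Msn, encoding the linker moesin and the most abundant of the list, had 0.05 (adjusted p = 0.451).

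Across the 8 genes, replicate number and condition took very different shares of the variance on the log2(TPM + 0.1) scale. Replicate number took 90.3% for Sdc4, 89.4% for Vcam1, 85.2% for Pax7, 82.2% for Cxcr4 and 65.5% for Cdh15, all above the median of 62.8% over all genes tested. Its share was 42.8% for Spry1, 35.5% for Pax3 and 8.83% for Met. Replicate number has more levels than condition and takes a larger share of random scatter, so the shares of both cannot be compared directly. Condition took 57.1% for Met and 33.5% for Cdh15, and between 0.017% for Vcam1 and 15.3% for Spry1 among the rest, beside a median of 7.50% over all genes. In TPM, 0 of 8 identity genes had control and cold libraries that did not overlap, compared with 4.68% of all genes tested.

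A further 22 genes reported in SCs were listed, and 20 were tested. With the block, Itga7 fell and Megf10 rose, and the other 18 did not pass, so that 2 of 20 were called, beside 5.33% of all genes. Itga7 encodes the α7 integrin subunit used to sort SCs, and its TPM was 209 ± 31.2 in control and 172 ± 23.7 in cold (SD, n = 4), with a blocked log2 fold change of −0.29 (edgeR adjusted p = 1.14e-05, called in 9 of 9 blocked fits; adjusted p = 0.797 without the block). Megf10, which encodes a receptor active in proliferating SCs, had 79.3 ± 12.98 and 91.1 ± 22.1 TPM with 0.17 (adjusted p = 0.0184, called in 6 of 9 blocked fits with adjusted p up to 0.194; adjusted p = 0.999 without the block). Without the block the value of Megf10 was 0.18, and it ranged from 0.06 without control replicate 4 to 0.30 without cold replicate 4. The median blocked log2 fold change of the list was 0.04. Nes, encoding the intermediate filament nestin, was the most abundant at 522 ± 70.9 TPM in control and 545 ± 111 in cold.

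**Figure D4:**
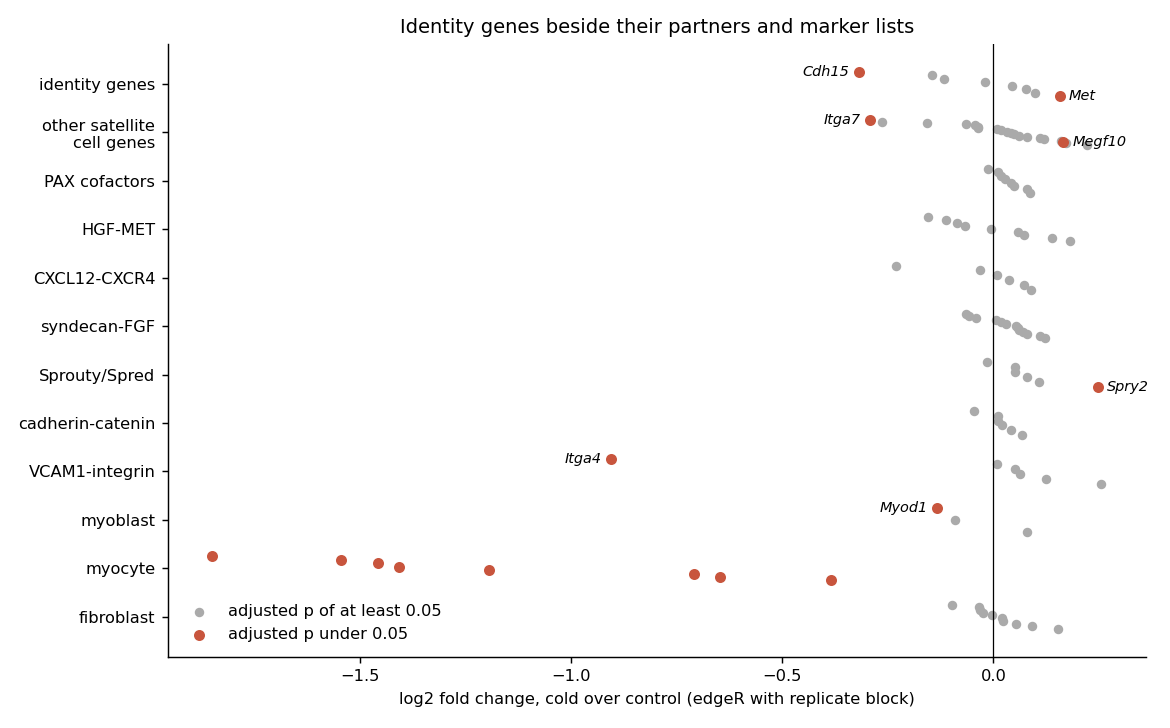
Blocked log2 fold change, cold over control (horizontal axis), of each tested gene of the identity list, of the partner lists and of marker lists of other cell states (vertical axis), with red points for an edgeR adjusted p under 0.05. Among the identity genes and their partners Itga4, at −0.91, lies farthest from 0, and all 8 myocyte genes lie below 0.

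Pax7 was set against Myod1, the myogenic determination factor, because the balance of PAX7 and MYOD1 is the usual reading of an SC's state. Myod1 was the far more abundant, with 37.1 to 61.7 times the TPM of Pax7 in control libraries and 34.1 to 50.9 times in cold libraries. The log2 ratio of Pax7 to Myod1 was −5.59 ± 0.38 in control and −5.38 ± 0.27 in cold (SD, n = 4), a difference of 0.21 (exact two-sided permutation p = 0.371). It was higher in the cold in 4 of 4 pairs, by 0.40, 0.21, 0.12 and 0.12. An exact sign-flip permutation test over the pairs gave p = 0.125, the smallest that this test can give with 4 pairs. The difference rested on single libraries: it was 0.10, 0.12 and 0.12 without control replicate 1, control replicate 2 or cold replicate 4, and 0.34 without control replicate 4, and no exact permutation p fell below 0.229 when a library was left out. Myod1 itself had 614 ± 103 TPM in control and 567 ± 97.97 in cold (SD, n = 4). Its blocked log2 fold change was −0.13 (edgeR adjusted p = 0.0200, called in 6 of 9 blocked fits with adjusted p up to 0.144), and without the block it was −0.14 (adjusted p = 0.999). The unblocked value of Myod1 rested on single libraries, at −0.02 without cold replicate 4, −0.06 and −0.09 without control replicates 2 and 1, −0.22 without cold replicate 2 and −0.27 without control replicate 4.

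**Figure D5:**
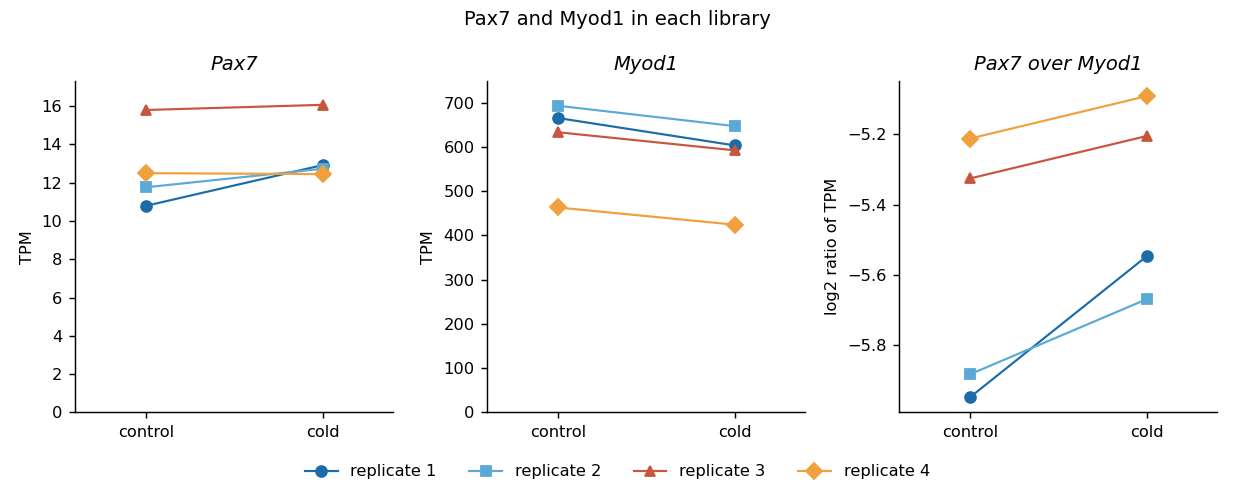
TPM of Pax7 and of Myod1 (left and middle, axes from 0) and the log2 ratio of Pax7 to Myod1 (right) in each control and cold library, with lines joining the same replicate number. The ratio is higher in the cold in all 4 pairs, and replicates 3 and 4 lie above replicates 1 and 2 in both groups.

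Markers of other cell states were listed as well. Their levels come from whole dishes and do not show which cells gave them. The study reported high purity of its isolated hamster cells by Pax7 or MyoD staining. All 8 genes of differentiating myocytes were lower with the block, as were 4.07% of all genes (median log2 fold change −1.30; without the block edgeR called 0 of 8, with 5 at an unadjusted p under 0.05 beside 6.7% of all genes, DESeq2 4 beside 1.14% and limma 0 beside 0.029%), and their summed level was 2175 to 4090 TPM in control and 1129 to 2065 TPM in cold. This list includes genes that the study chose from these libraries, so its direction is not independent evidence. Acta1, which encodes skeletal α-actin, had 644 ± 222 TPM in control and 176 ± 38.2 in cold, and Mymk, which encodes the fusion protein myomaker, had 260 ± 113.5 and 88.8 ± 34.2 (SD, n = 4). The blocked log2 fold changes of Acta1, Mymk, Ckm and Myh3 were −1.85, −1.54, −1.46 and −1.41 (edgeR adjusted p = 9.63e-11, 6.96e-12, 2.24e-05 and 1.50e-10), and Tnnt3, the most abundant in the mean over all 8 libraries, had −0.65 (adjusted p = 2.57e-08). Ckm encodes muscle creatine kinase, Myh3 embryonic myosin and Tnnt3 a fast troponin T. The summed myocyte level was higher in control replicates 1 and 2 than in 3 and 4, and likewise in the cold, as was Cdh15, and its part in the values of Cdh15 was not tested.

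Of the 3 myoblast genes 1, Myod1, fell with the block, beside 4.07% of all genes, while Des, the muscle intermediate filament gene and the most abundant, had 830 ± 105 TPM in control and 784 ± 51.8 in cold (blocked edgeR adjusted p = 0.408), and Myf5, the earliest of the myogenic factors, had 147 ± 52.9 and 154 ± 45.7 TPM (adjusted p = 0.361). Fibroblast genes were present at 1233 to 1769 TPM summed in control and 1221 to 1717 in cold, and 0 of 10 changed in either fit, near the 5.33% of all genes called with the block. Thy1, the most abundant of them, had 568 ± 95.3 and 579 ± 76.1 TPM. Their sum was higher in replicates 3 and 4 than in 1 and 2 of both groups, as were Sdc4 and Vcam1, and its part in those levels was not tested. Of 5 mural cell genes 1, Acta2, encoding smooth muscle α-actin, fell with the block, beside 4.07% of all genes (log2 fold change −0.46; edgeR adjusted p = 2.68e-05 with the block and 0.676 without it), and the list summed to 1191 to 2018 TPM in control and 1028 to 1323 in cold. This sum was nearly all Acta2, at 1526 ± 400.5 and 1097 ± 145 TPM (SD, n = 4), and Pdgfrb, Cspg4, Myh11 and the pericyte gene Rgs5 stood at 42.5, 28.3, 2.37 and 0.39 TPM in control and did not pass the test.

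Endothelial markers were scarce, while the leukocyte list was mixed. Endothelial genes summed to 2.59 to 4.41 TPM in control and 2.67 to 4.23 in cold, of which Cdh5 gave 1.62 ± 0.43 and 1.54 ± 0.30. Of the 3 tested 0 changed in either fit, beside 5.33% of all genes with the block and 0.072% without it. Vcam1 is also expressed by activated endothelium, and the part of such cells in its values was not tested. Leukocyte genes summed to 40.9 to 97.3 TPM in control and 44.1 to 105 in cold, of which Cd68, a lysosomal protein gene not confined to macrophages, gave 34.1 ± 12.2 and 37.7 ± 14.0 TPM. Cd14, a lipopolysaccharide co-receptor gene, gave 27.7 ± 13.5 and 30.9 ± 15.2 TPM, and Csf1r, the receptor gene for macrophage colony-stimulating factor, 3.16 ± 1.03 and 3.42 ± 0.95 TPM (SD, n = 4). The pan-leukocyte gene Ptprc stood at 0.01 TPM over all libraries, Adgre1 at 0.00 and Cx3cr1 at 0 in every library. Of 3 leukocyte genes tested 0 changed in either fit, beside the same 5.33% and 0.072% of all genes, shares at which so short a list may hold no call. Cxcr4 is also expressed by leukocytes, and their part in its values was not tested.

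For each identity gene the genes of most similar pattern were sought among 10487 tested genes with a mean of at least 1 TPM, by the root mean square difference of gene-centred log2(TPM + 0.1) over the 8 libraries. The measure describes likeness only, since all genes share the same libraries. Cdh15 was nearest to Itga7 (0.05) and Ammecr1 (0.06), beside a spread of 0.26 of Cdh15 around its own mean. Itga7 is thus both a further SC gene that fell and the closest in pattern to Cdh15. Met was nearest to Pds5b and Supt16h (0.02 each, own spread 0.12), which encode a cohesin regulator and a histone chaperone. Pax7 was nearest to Jag2, a Notch ligand gene (0.04), and to Ptprg (0.05), with an own spread of 0.18.

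Sdc4 was nearest to Mtmr2 and Setd1a (0.03 each, own spread 0.20), and Cxcr4 to Gramd1b (0.05) and Nfatc1 (0.08, own spread 0.24). Vcam1 was nearest to Rps6ka2 and Prkch (0.05 each, own spread 0.24), and Spry1 to Pigl (0.04) and Camlg (0.05, own spread 0.13). Pax3 had no close neighbour by this measure, since its nearest genes Iqcc and Cep112 differed by 0.20 and 0.27 beside an own spread of 0.42.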

How the data were processed

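RNA-seq libraries of hamster SCs were compared between 4 control and 4 cold libraries. The deposited table gives 3 values per gene and library. Its expected counts (obtained by the authors from sequenced read pairs) carry no normalization, and those of the 8 identity genes are whole although others are not. Its TPM values were computed by the authors per library and given to hundredths. Its normalized counts, a signal deposited by the authors, multiply the count by one factor per library. The submitters' processing notes name HISAT and HISAT2, while the counting program and genome build are not given in the sources used here, so no coordinates or sequences are shown.

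Rounded counts were fitted in R 4.3.3 by edgeR 4.0.16 (filterByExpr, TMM, quasi-likelihood F test, Benjamini-Hochberg adjustment over 12506 genes), without a block and blocked on the replicate number, which the titles give as 1 to 4. Each standard error is the log2 fold change over the root of F. Single genes were compared in TPM by exact two-sided permutation tests, and shares of variance come from log2(TPM + 0.1) with condition and replicate number as factors. Poisson intervals (95%) cover counting error only, since reads carry no molecular identifiers. The study describes biological replicates and does not say which share an animal. Alternatives were DESeq2 1.42.0, RLE factors, library totals, no filter, a mean of 10 counts per group, limma 3.58.1 on log2 TPM with pseudocounts of 0.1, 1 and 0.01, each library left out, and replicates 1 and 2 or 3 and 4 alone. Blocked fits with a pair left out, RLE factors, library totals or limma were added after seeing the data. On simulated counts with 200 of 12428 genes changed and a replicate effect, the blocked fit recovered 196 with 8 false calls and the unblocked fit 162 with 0. Recovery at log2 fold changes as small as the blocked values of Met (0.16) and Cdh15 (−0.32) was not tested. False calls where replicates 1 and 2 lie apart from 3 and 4 were not tested either. Python 3.11.15 with matplotlib 3.10.9 was used for figures.

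The 8 genes and all lists were chosen with earlier results of these data known. Named are the 8 genes, and from each list the most abundant gene, genes at 0 in every library and up to 4 called genes of largest change, plus the 2 genes nearest in pattern to each identity gene. Other list members are named for their role, after their values were seen. The result of 1 further marker list is not reported here. Sdcbp and Jup had no matching symbol among the genes with values. The study's other experiments were not analysed here.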

Additional observations from a re-analysis of the deposited data

Results flagged for a closer look

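Pax7 in cold replicate 3, at 16.07 TPM, stood apart from the other 3 cold libraries, with a gap of 0.87 of the range of the group. Its control of the same number was also the highest control library, at 15.8 TPM. Of 38 groups of 4 libraries examined this way, 1 stood apart, and chance gives about 1.9. Without this library the log2 fold change of Pax7 was −0.01 instead of 0.08, and neither value passed the test.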

How the results depend on the processing

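No identity gene passed the 2-fold criterion under any of the alternatives run. At an adjusted p under 0.05 the count was 0 of 8 in all unblocked fits to 7 or 8 libraries and rose to 2 with the replicate block. With the block it was also 2 under RLE factors, library totals or without pair 3 or 4. It was 1 without pair 1 or 2, in DESeq2 with the block and in limma with the block. Among all genes, 667 of 12506 were called with the block and 360 in DESeq2 with the block. All-gene counts were not taken for the other blocked fits. The count of identity genes was 2 in replicates 1 and 2 alone, where 1442 of 12452 genes were called. It was 0 in replicates 3 and 4 alone, where 50 of 12595 genes were called. In TPM 0 of 8 had groups that did not overlap (4.68% of all genes), compared with 1 (Met) on CPM (4.85% of all genes) or deposited normalized counts (4.78%). When a library was left out the number was 0 to 1 (Cdh15 without control replicate 3, Met without control replicate 4 or cold replicate 3). The share of all genes was not taken with a library left out, where groups part more easily.

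Over all genes, 5 passed both thresholds and 9 the adjusted p alone. These counts were 66 and 142 in DESeq2, 8 and 14 with library totals, 15 and 25 without a filter, 3 and 4 with a mean of 10 counts, 3 and 4 in limma at each pseudocount, 106 and 667 with the replicate block, 85 and 360 in DESeq2 with the block, 183 and 1442 in replicates 1 and 2 alone and 28 and 50 in replicates 3 and 4 alone. Leaving out a library gave 0 to 34 and 0 to 46, highest without control replicate 3. The causes were not tested.

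Of 216 log2 fold changes of identity genes under alternatives, 197 kept their sign and 19 turned, none of them past the threshold. Pax7 ranged from −0.0105 to 0.18 when a library was left out. Pax3 ranged from −0.3911 to 0.12, Sdc4 from −0.0303 to 0.12 and Vcam1 from −0.1359 to 0.10 in the same way, Cxcr4 from 0.0011 (without control replicate 4) to 0.23 (without cold replicate 4) and Spry1 from −0.19 (without cold replicate 3) to −0.06 (without control replicate 1), with signs turned in Pax3 without control replicate 2, in Sdc4 without control replicate 1 or 2 or cold replicate 3, and in Vcam1 without control replicate 4 or cold replicate 1 or 2. With the block and without pair 2, Pax3 turned to 0.25. In replicates 3 and 4 alone Sdc4 turned to −0.0284, Cxcr4 to −0.0444 and Spry1 to 0.0326, and in replicates 1 and 2 alone Vcam1 turned to 0.0788. Vcam1 was also 0.0061, 0.0043 and 0.0064 in limma at pseudocounts of 0.1, 1 and 0.01, 0.0061 in limma with the block, and 0.0145 and 0.0109 with the block without pairs 3 and 4. The replicate block changed no other call among the identity genes than those of Met and Cdh15. Depth limits Pax3, at 7 to 24 reads per library, more than the other 7 genes, which had at least 297.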
